A study of Mus musculus with 12 samples.

Results

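Methylation of single CpGs was compared between mouse embryonic stem cells (ESCs) with and without Tet enzymes. The CpGs described here are the 1117 of 20921 listed CpGs (5.34%) that occurred in at least 3 of the 4 lists of differences against wild-type (WT) cells. They were chosen by those lists, that is, by the same differences that are given below, so the counts and sizes of these differences are a description and carry no test. Most members were higher in the knockouts, as was most of each list. Most lay more than 2000 bp from a transcription start site (TSS), as did most annotated CpGs in 1 or 2 lists. The same difference stood in at least 2 lists at 26.1% of members. Among CpGs in exactly 2 lists, which offer fewer pairs, that share was 14.2%.

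DNA methylation had been measured by reduced representation bisulfite sequencing (RRBS), which cuts genomic DNA at CCGG with a restriction enzyme and reads methylated cytosine in the short fragments after bisulfite treatment. The 12 clones were undifferentiated 129 derived (129/SVj) ESCs grown on gelatin with LIF. They comprised 3 WT, 3 Tet1-/-, 2 Tet2-/-, 2 Tet1-/-:Tet2-/- (DKO) and 2 Tet1-/-:Tet2-/-:Tet3-/- (TKO) clones, and knockouts carry indels made with CRISPR/Cas9. All groups, WT included, share the Oct4:IRES:eGFP reporter and descend from 1 clone of it, and for some edited genes only a single allele with its indel was found by the study. Titles gave the groups, because 3 libraries (DKO replicate 1 and the pair of TKO replicates) carry the name of a different knockout as genotype. Each list gives 1 value per CpG for a whole genotype, so neither the spread between clones nor the depth behind a value is known. Marker expression, which would check the cell type, is not part of such lists.

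Tet enzymes oxidise 5-methylcytosine to 5-hydroxymethylcytosine and further forms, a route by which methylation is removed from DNA. Bisulfite sequencing reads 5-methylcytosine and 5-hydroxymethylcytosine alike. Tet1 and Tet2 are the Tet genes known to be expressed in ESCs, whereas Tet3 is known for its role in the oocyte and zygote. Every difference below is the authors' deposited value, in percentage points of methylation, knockout minus WT, and a positive value means higher methylation in the knockout.

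The sequences that follow show the runs of 3 or 4 neighbouring members and 4 promoters with a member in all 4 lists. Each is the forward strand of NCBIM37 (mm9), 30 bases beyond the outer members on each side, with the member CpGs in capitals.
Tram2, upstream, chr1:21070451-21070526: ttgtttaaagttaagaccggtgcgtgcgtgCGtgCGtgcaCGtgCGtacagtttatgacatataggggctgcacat
Pitpnc1, intron 1, chr11:107241003-107241086: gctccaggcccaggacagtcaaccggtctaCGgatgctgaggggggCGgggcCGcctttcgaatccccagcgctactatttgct
4930515B02Rik, upstream, chr4:140425116-140425191: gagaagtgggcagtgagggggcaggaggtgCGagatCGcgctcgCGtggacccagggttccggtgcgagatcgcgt
Spen, exon 12, chr4:141034997-141035075: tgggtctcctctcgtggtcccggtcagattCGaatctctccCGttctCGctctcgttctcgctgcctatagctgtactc
Slu7, promoter, chr11:43246925-43246986: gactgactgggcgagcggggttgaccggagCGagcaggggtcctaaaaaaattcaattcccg
Klhl23, promoter, chr2:69660172-69660233: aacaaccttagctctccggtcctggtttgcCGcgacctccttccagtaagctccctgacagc
Rab31, promoter, chr17:66122316-66122377: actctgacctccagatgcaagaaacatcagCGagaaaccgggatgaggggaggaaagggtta
Esr2, promoter, chr12:77278736-77278797: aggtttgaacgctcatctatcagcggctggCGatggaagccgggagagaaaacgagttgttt
A ccgg, the cut site of RRBS, lies within each of these windows, and its CpG was 5 bases from the member at Slu7, 8 at Rab31 and 14 at Klhl23.

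Of the 1117 members, 1000 were in 3 lists and 117 in all 4, while 4266 CpGs were in exactly 2 lists and fell just outside the rule. The combination of TKO, DKO and Tet2 KO held 344 members, 303 of them with a mean difference above 0. The other combinations of 3 lists held 248 (TKO, Tet2 KO and Tet1 KO), 209 (DKO, Tet2 KO and Tet1 KO) and 199 members (TKO, DKO and Tet1 KO). With 143 of its 199 members above 0, the combination without Tet2 KO had the most members below 0, at 56. The members closest to the 25-point minimum of the lists were a CpG in the first exon of Tet1 with 25.0048 points in DKO, a CpG in intron 17 of the neurexin gene Nrxn2 with 25.0091 points in Tet1 KO, and a CpG in exon 4 of Calr, the gene of the chaperone calreticulin, with 25.0218 points in Tet2 KO. At 522 members (46.7%) the smallest of the differences was under 30 points in size.

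**Figure D1:**
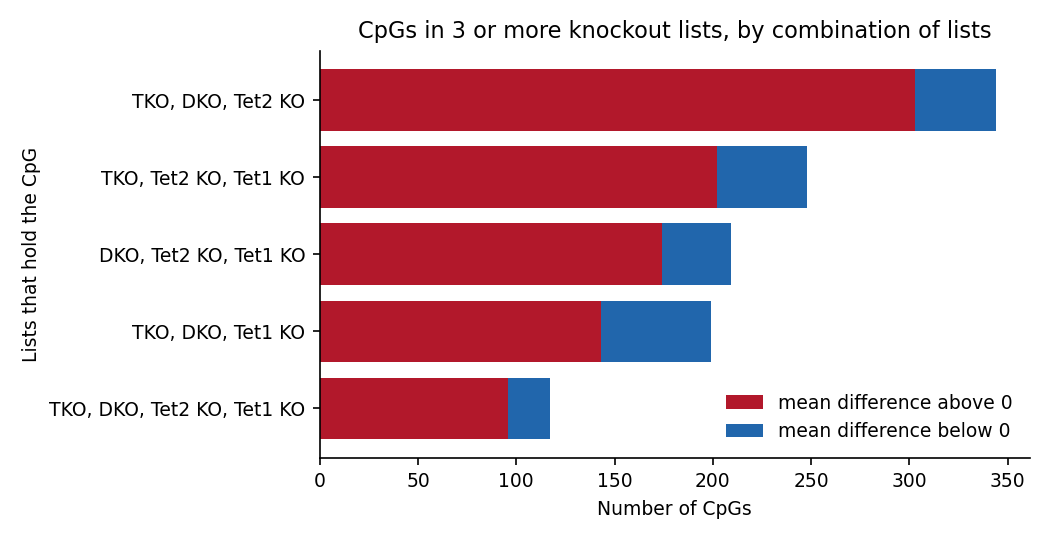
Number of CpGs (horizontal axis) for each combination of knockout lists (rows), split by the sign of the mean difference over the lists that hold the CpG. The largest bar is that of TKO, DKO and Tet2 KO with 344 CpGs, and 117 CpGs were in all 4 lists.

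Members were mostly higher in each knockout. In TKO, 718 of the 908 members listed there were higher (79.1%), beside 58.6% of all CpGs of that list. In DKO, 706 of 869 were higher (81.2%), beside 64.8% of its list. In Tet2 KO, 773 of 918 were higher (84.2%), beside 77.7% of its list, and in Tet1 KO, 610 of 773 (78.9%), beside 65.6% of its list. These contrasts chose the members and use the same WT clones, so nothing is read from the gap between a member share and its list. Over its lists, 918 members had a mean above 0 (median 40.3 points) and 199 a mean below 0 (median -37.9 points). To account for every member, 848 were higher in each list that held them, 171 were lower in each and 98 had both signs.

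The median absolute difference of members was 39.6 points (TKO), 40.9 (DKO), 40.6 (Tet2 KO) and 33.9 (Tet1 KO). For CpGs listed in that knockout alone it was 36.0, 36.7, 36.1 and 33.2 points in the same order. At least 50 points were reached by 27.6% (TKO), 28.9% (DKO), 30.3% (Tet2 KO) and 13.6% of the members (Tet1 KO). Among the 84 members higher in all 4 lists the medians were 42.7, 46.4, 47.1 and 35.1 points in that order of knockouts. Tet1 KO was alone in having the smallest value at 37 of these 84 and alone in having the largest at 5. Among the 19 members lower in all 4 lists Tet1 KO was not the smallest, with medians of -42.0 points (TKO), -33.5 (DKO), -32.1 (Tet2 KO) and -34.5 (Tet1 KO), and it was alone in having the smallest value at 3 of them. Within a member of 1 sign the lists could still be far apart, with a median range of 17.2 points over 1019 members. That range was under 10 points at 300 of them and over 40 points at 97.

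Neighbouring members were counted by region, which was not done for CpGs in fewer lists. When members within 1000 bp of the next were merged they formed 1046 regions, and 981 members (87.8%) were the only one in theirs. A further 61 regions held 2 members, 2 held 3 and 2 held 4. The next listed CpG of any list was within 1000 bp for 42.1% of members, against 37.4% of CpGs in 2 lists and 32.4% of CpGs in 1 list. The largest regions were all higher in methylation.

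Upstream of Tram2, a gene of a translocation-associated membrane protein, the 4 members lay within a run of alternating CpGs 1175 to 1189 bp before the TSS and partly in a simple repeat. In Tet2 KO the 4 CpGs had 59.5, 82.4, 63.0 and 51.1 points from first to last. In DKO they had 56.5, 58.3, 30.4 and 32.9 points, and in Tet1 KO 30.5, 51.7, 54.1 and 30.4 points. Tet2 KO was the highest at each CpG, and none of the 4 was listed for TKO. In intron 1 of Pitpnc1, a phosphatidylinositol transfer protein, 3 CpGs within 22 bp had 81.1, 39.3 and 58.0 points in TKO, 61.1, 25.8 and 45.5 in DKO and 63.5, 48.2 and 57.4 in Tet2 KO. In each of these knockouts the middle CpG was the lowest, and none was listed for Tet1 KO. The fourth member of that region, at position 107240364 in a B4 repeat, had 26.3 points in TKO, 30 in DKO and 50 in Tet2 KO.

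The exon with the most members was exon 12 of Spen, a nuclear RNA-binding repressor needed for gene silencing on the inactive X chromosome. The lists name Zbtb17 there, whose TSS is the nearest, 34439 bp from the first CpG. The 3 Spen CpGs, within 17 bp, had 50.7, 63.4 and 76.5 points in TKO, 44.1, 84.5 and 68.1 in DKO and 53.7, 28.0 and 68.0 in Tet2 KO. For Tet1 KO only the last was listed, with 47.4 points. TKO, DKO and Tet2 KO were thus close at the first CpG and 56.4 points apart at the middle one. The 3 CpGs 3448 to 3462 bp upstream of the noncoding 4930515B02Rik had 66.7, 38.6 and 36.8 points in TKO, 64.4, 69.4 and 48.2 in Tet1 KO and 27.5, 27.9 and 31.1 in Tet2 KO. Tet2 KO was the lowest there at each CpG, the reverse of Tram2.

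**Figure D2:**
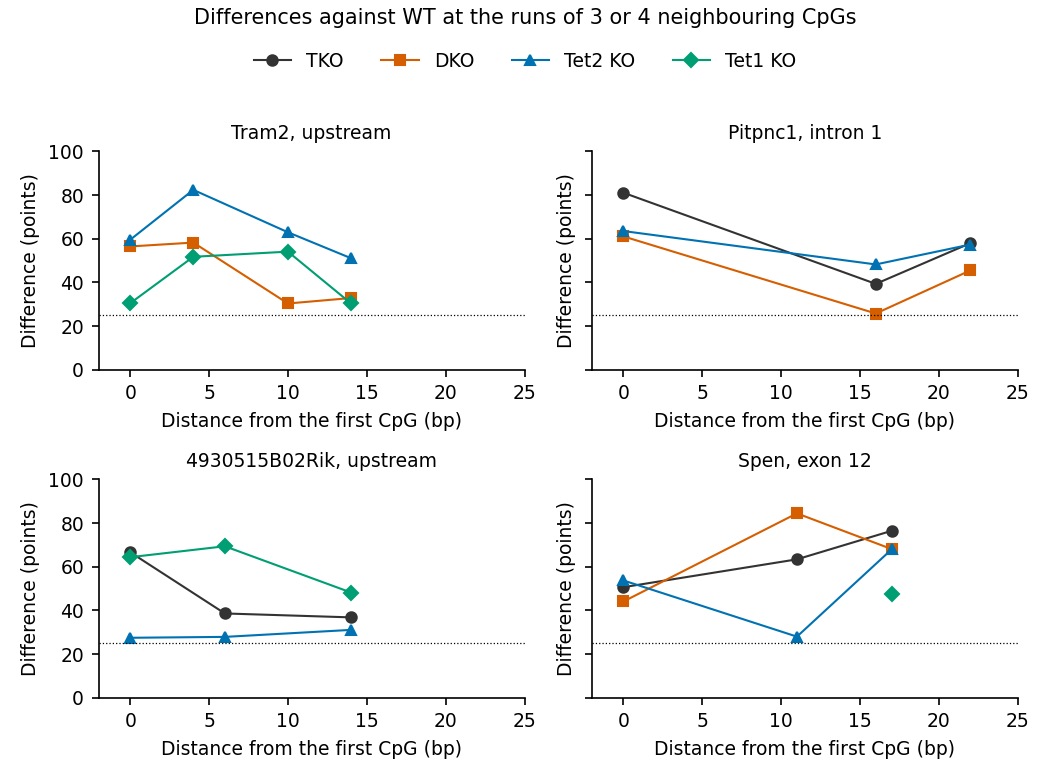
Methylation difference against WT in percentage points (vertical axes) at neighbouring members, by distance from the first one in bp (horizontal axes). Points are CpGs, colours and symbols are knockout lists, the dotted line is the 25-point minimum, and a missing point means that the CpG was not in that list. Tet2 KO was the highest list upstream of Tram2 and the lowest upstream of 4930515B02Rik.

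At 3 regions neighbouring members had means of opposite sign. In intron 15 of Myo1h, a myosin gene, a CpG with -27.9 points (DKO), -66.2 (Tet2 KO) and -29.0 (Tet1 KO) lay 93 bp before a CpG with 29.8 points in TKO, 44.8 in DKO and 35.1 in Tet2 KO. Near Sdsl, a gene of the serine dehydratase family, the first CpG had -40.2 points in TKO, -59.7 in DKO and -41.7 in Tet1 KO, and the second, 68 bp on in a DNA transposon, had 31.3 in TKO, 29.6 in DKO and 86.8 in Tet2 KO. The third pair, 16 bp apart in intron 1 of Fnip2, which encodes a partner of folliculin, was lower in DKO (-36.2 and -33.3 points) and higher in Tet2 KO (31.5 and 26.6 points).

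The nearest TSS belonged to 975 different genes, and 854 of them had a single member. Another 103 genes had 2 members, 15 had 3 and 3 had 4. The nearest TSS was often not that of the gene that held the CpG. Of 550 members in an exon, intron or untranslated region, 547 matched a gene of the RefSeq table by transcript, and 176 of these (32.2%) lay in a gene other than the one named. The 4 members named for 1700030M09Rik, for example, lay in Fbxo31, which encodes the substrate receptor of a ubiquitin ligase. Of these, the CpG at position 124074719 in its last exon had 72.3 points in TKO, 81.1 in Tet2 KO and 50.8 in Tet1 KO. Fbxo31 and Pitpnc1 were the genes with the most members inside them, with 4 each, all above 0.

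Other genes had 3 members, all above 0. Plxnc1 encodes a receptor for semaphorins, which guide axons. Its CpG in intron 21 had 64.1 points in TKO, 74.1 in DKO and 78.2 in Tet2 KO, and its CpG in intron 1 had 65.1, 72.1 and 27.4 in the same lists and 62.2 in Tet1 KO. Ank3 encodes ankyrin-G, which anchors membrane proteins at the axon initial segment. Its CpG in exon 30 had 39.2 points in TKO, 63.8 in Tet2 KO and 39.9 in Tet1 KO, and a CpG in intron 1 had 41.7 points in TKO, DKO and Tet2 KO alike. At Drd3, a dopamine receptor gene, the mean over the 3 CpGs was 51.5 points. At Rbfox3, a neuronal splicing regulator, the 2 CpGs in intron 2, 3 bp apart, were close over lists, with 32.6 and 41.7 points in TKO, 34.7 and 41.2 in DKO and 33.7 and 37.8 in Tet2 KO. The remaining genes with 3 members above 0 that the naming rule took were Hs6st1, a heparan sulfate sulfotransferase gene, Ppp2r2a, a regulatory subunit gene of protein phosphatase 2A, and Gm6994, whose members lay in introns of Enox1. Those named for Hs6st1 were intergenic, 201622 to 318962 bp upstream. The highest value among the Ppp2r2a members was 75.1 points in TKO, at a CpG 25465 bp upstream.

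Genes with members below 0 had fewer of them. Near Sult1c2, a sulfotransferase gene, 2 CpGs 8 bp apart in an L1 element had -58.6 and -48.3 points in each of TKO, Tet2 KO and Tet1 KO. Upstream of Zfand2a, 2 CpGs 4 bp apart were lower in all 4 lists, with -50.01 and -54.4 points in TKO, -36.7 and -33.0 in DKO, -28.6 and -41.5 in Tet2 KO and -30.0 and -45.3 in Tet1 KO. The lowest means were single CpGs. The CpG nearest Krt32, a hair keratin gene, had -78.5 points in TKO, -87.5 in DKO and -65.5 in Tet2 KO. The CpG 75655 bp upstream of Ralgps2, a Ral exchange factor gene, had -85.4 in TKO, -88.7 in DKO and -53.5 in Tet2 KO. That in Cmc2, a mitochondrial assembly factor gene, had -97.6 points in TKO, -55.6 in DKO and -60.0 in Tet2 KO. A loss cannot exceed the WT level, so WT cells were methylated to at least 97.6% at the Cmc2 CpG. Other low means were Chd3os (mean -69.8 points, in exon 36 of the chromatin remodeller gene Chd3), Ttn, the titin gene (-62.5, the only one of these in all 4 lists), Prrc2a (-62.1) and Srgap2 (-61.1).

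The highest means were led by Gramd4. In its intron 1 a CpG had 100 points in TKO, DKO and Tet2 KO, which means 0% methylation in WT and 100% in each of these knockouts in the authors' values. The CpG 2 bp further had 80.6 points in the same 3 knockouts, and neither was listed for Tet1 KO. A CpG in exon 6 of Etv6, an ETS family repressor, had 93.9 points in DKO and in Tet2 KO and 69.7 in Tet1 KO. The lists name it for Bcl2l14. In intron 1 of Bik, a pro-apoptotic gene, the values were 100 points in TKO and Tet2 KO and 38.5 in Tet1 KO. Of the other high means, 82.8 points was 64533 bp upstream of Tmem247 and 81.1 was 49714 bp upstream of Esp23, both in endogenous retroviral elements. The CpG 41354 bp upstream of Ryk, the gene of a Wnt receptor, had a mean of 77.2 points. That in exon 2 of Mphosph6 had 76.9.

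Within 2000 bp of a TSS lay 122 members (10.9%), 97 with a mean above 0 and 25 below. Members in all 4 lists so close to a TSS numbered 14. At Slu7, a splicing factor gene, the CpG 278 bp upstream had 44.3 points (TKO), 37.8 (DKO), 76.1 (Tet2 KO) and 59.9 (Tet1 KO). At Klhl23, a kelch family gene, the CpG 225 bp upstream had 26.4 points (TKO), 58.2 (DKO), 61.2 (Tet2 KO) and 39.8 (Tet1 KO). The list with the highest value thus differed between promoters, and it was DKO at B4galt3, a galactosyltransferase gene, with 76.4 points against 27.1 to 43.1 in the others. Arhgap24, a GTPase-activating protein gene, had its CpG 43 bp from the TSS, with 35.0 points (TKO), 49.97 (DKO), 41.5 (Tet2 KO) and 30.9 (Tet1 KO). The range over the 4 lists was narrowest among those above 0 at Cfap58, a gene of cilia and flagella, from 32.7 to 44.5 points. Gm5512, AA467197 and 2810004N23Rik were also higher in all 4, with means of 59.6, 47.3 and 46.9 points.

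The remaining 6 of the 14 were not higher throughout. Vgll4, a cofactor gene of TEAD factors, had -42.0 points (TKO), -65.5 (DKO), -28.4 (Tet2 KO) and -35.3 (Tet1 KO). At Unc79, which encodes a subunit of a sodium leak channel complex, the CpG was lower in TKO (-26.6) and DKO (-26.2) and higher in Tet2 KO (41.8) and Tet1 KO (27.1). At Eif2b1, a translation initiation factor gene, only DKO was lower, with -25.6 points against 38.0 to 66.1 in the others. The CpGs of Esr2, Rab31 and Ppp2r5b, the genes of estrogen receptor beta, a small GTPase of vesicle transport and a subunit of protein phosphatase 2A, had 1 value each in all 4 lists. It was -25.6 points at Esr2, -27.8 at Rab31 and -32.1 at Ppp2r5b.

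**Figure D3:**
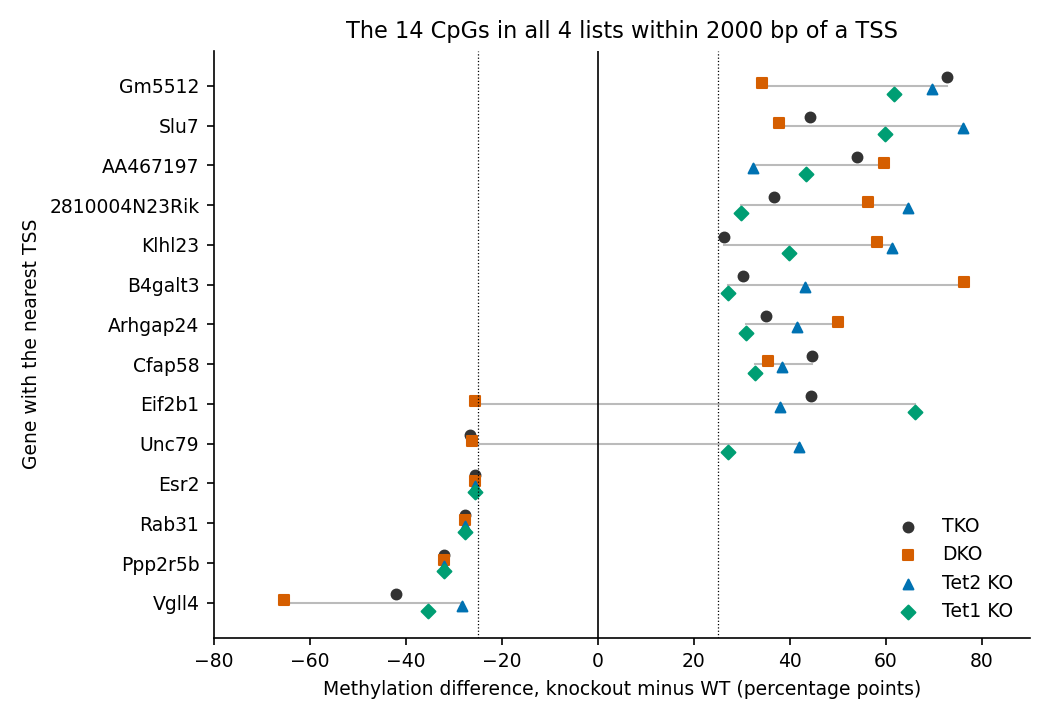
Methylation difference in percentage points (horizontal axis) in the 4 knockout lists for each of the 14 members in all 4 lists within 2000 bp of a TSS (rows, ordered by mean). Symbols are lists, offset vertically for legibility, grey lines span the lists and dotted lines mark 25 points. At Esr2, Rab31 and Ppp2r5b the 4 symbols coincide, and Eif2b1 and Unc79 have values on both sides of 0.

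Equal values of this kind were common. At 291 members (26.1%) the difference was the same, within 1e-06 points, in at least 2 lists: in 2 lists at 170 members, in 3 at 109 and in all 4 at 12. Among CpGs in exactly 2 lists, which offer fewer pairs, it was 607 of 4266 (14.2%). Since the lists share the WT clones, equal differences mean equal methylation in those knockouts, provided that the same WT level entered each list. At 112 of the 291 all lists of the CpG had the same value. At the other 179 a further list differed, and the shared value was the largest of its sign at 178. The exception was a CpG 149047 bp upstream of Tnks, the tankyrase gene, with 57.9 points in Tet2 KO and Tet1 KO but 61.9 in TKO. By pair, the share of members with an equal value ran from 12.1% of the 564 in both TKO and Tet1 KO to 20.4% of the 670 in both DKO and Tet2 KO. The depth behind these values is unknown, so whether it played a part was not tested.

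Of these 291 shared values 262 were above 0, with a median of 40.5 points and a range from 25.1 to 100, and 29 were below 0, with a median of -31.6 and none lower than -62.8. In all 4 lists the same value was found at Mr1 (32.8 points), an antigen-presenting molecule gene, at Ticam2 (51.2), a Toll-like receptor adaptor gene, at Cacna1c (26.2), a calcium channel gene, and at a CpG (51.7) in an intron of Erich2 that the lists name for Gad1. Intronic CpGs of Adgrv1 (30.9) and Hs6st3 (28.8) and an L1 element 102386 bp upstream of Fign (28.2) also had 1 value throughout. Below 0 these were Esr2, Rab31 and Ppp2r5b, given above, with an exon of Fcrlb (-27.5) and an intergenic CpG near Zfp930 (-30.6). These genes were named after their values were seen, apart from those near a TSS and Gad1.

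Equal values were most frequent, by share, at members with a mean below 0 close to a TSS. Of these 25 members, 11 (44.0%) had the same value in at least 2 lists and 9 (36.0%) in at least 3. Farther from a TSS the same counts were 18 (10.3%) and 10 (5.75%) of 174 members below 0. Members above 0 showed the opposite order, with 10 of 97 (10.3%) equal in at least 2 lists near a TSS and 252 of 821 (30.7%) farther away. The 9 were, besides Esr2, Rab31 and Ppp2r5b, single CpGs at Ucn, the gene of the neuropeptide urocortin (-36.0 points), Phyhip (-32.7), Mn1, a transcriptional coregulator gene (-32.3), Luzp2 (-29.4), Tesc (-28.9) and Ssx2ip (-25.7), all 9 between -25.6 and -36.0 points. Each of the other 6 was in exactly 3 lists, and the list that lacked it was Tet2 KO at Ucn, Mn1 and Luzp2, DKO at Phyhip and Ssx2ip and Tet1 KO at Tesc. These were likewise named after their values were seen, and the counts rest on 25 CpGs with no test.

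**Figure D4:**
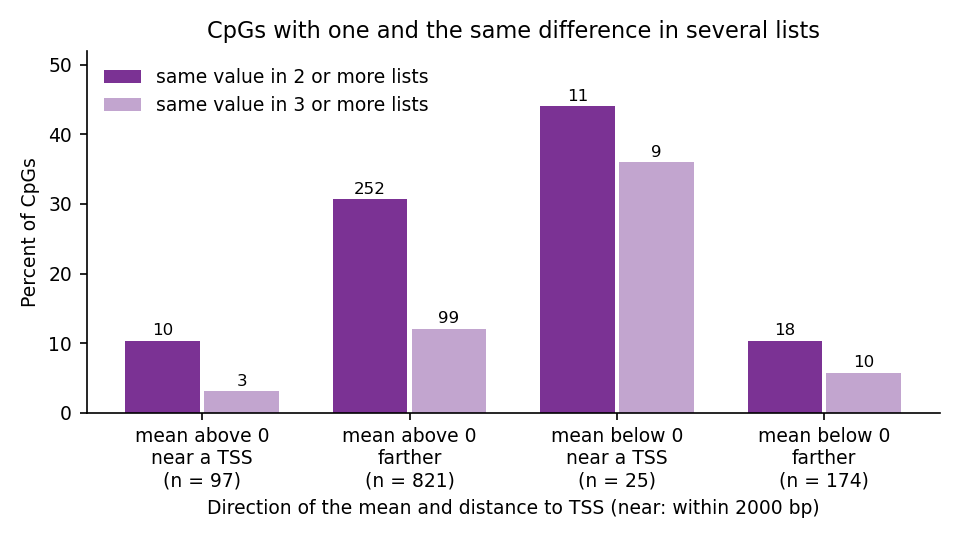
Percent of members (vertical axis) whose difference was the same, within 1e-06 points, in at least 2 lists (dark bars) or at least 3 lists (light bars), for members above and below 0, within 2000 bp of a TSS or farther (horizontal axis). Numbers on the bars are CpGs. The tallest bars are those of the 25 CpGs below 0 near a TSS, of which 11 and 9 had equal values.

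The 98 members with both signs differed by 52.9 points or more between their highest and lowest list, with a median of 74.5 points. The list that stood alone in its sign was TKO at 34 of them, DKO at 24, Tet1 KO at 19 and Tet2 KO at 17, and at 4 members the lists were divided evenly. No member spanned more than 100 points, and 10 spanned 100 within 1e-05 points. With 1 WT level for all lists, a span of 100 points fixes the levels, at 100% in one knockout and 0% in another. At Spred2, an inhibitor gene of Ras signalling, the CpG in intron 1 had 64.2 points in TKO, 49.3 in DKO and -35.8 in Tet1 KO, which places WT at 35.8%, Tet1 KO at 0% and TKO at 100%. In intron 1 of Mdga1, the gene of a synaptic adhesion modulator, the values were -50 in TKO and 50 in both DKO and Tet1 KO. In intron 1 of Fhod1, a formin gene, they were 50 in TKO, -50 in Tet2 KO and 34.3 in Tet1 KO. Kank4os (26.1 in TKO, -73.9 in Tet2 KO and -40.6 in Tet1 KO), Gm10390 (38.7 in TKO, 66.7 in DKO and -33.3 in Tet2 KO) and Mir7058 (-33.3 (DKO), 66.7 (Tet2 KO) and 58.7 (Tet1 KO)) followed. At the pair of neighbouring members in an intron of Cep20, a centrosome gene that the lists name Fopnl, the first had 46.3 points (DKO), -53.7 (Tet2 KO) and -43.6 (Tet1 KO), and the second was below 0 in each of its lists. Of the 6 CpGs named before it, those at Spred2, Mdga1, Fhod1, Kank4os and Gm10390 had a sign in TKO opposite to that in a single knockout. The sixth was not listed for TKO. The 10 CpGs with this span tie, so which 6 were named is arbitrary and nothing is read from their signs.

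The differences also bound the WT level. A CpG that is higher by some number of points in a knockout cannot be above the remainder to 100% in WT. Over the 918 members above 0 the median of this upper bound was 50.4%. The bound was under 50% at 447 of them and at most 20% at 65. Over the 199 members below 0 the median lower bound for WT was 50.02%, and at 12 it was at least 80%.

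Members were compared by annotation with CpGs in fewer lists. The 3989 CpGs in the DKO list alone had no usable annotation and are left out of the shares by annotation. Intergenic CpGs made up 45.0% of members (exact binomial 95% interval 42.1 to 48.0%), 42.2% of CpGs in 2 lists and 39.95% of the 11549 annotated CpGs in 1 list. CpGs within 2000 bp of a TSS made up 10.9% of members (9.15 to 12.9%), 11.2% and 13.6% in that order, and CpGs in repeats 21.0% (18.7 to 23.5%), 21.6% and 21.98%. CpG islands are CpG-dense stretches found at many promoters. The label of an island was given to 0.448% of members (0.145 to 1.04%), against 0.867% of CpGs in 2 lists and 1.43% in 1 list. Each CpG carries a single detailed label, and those labelled as promoter or exon have no island label. Islands that overlap promoters or exons are therefore not counted here. Repeats are read from the same label. Against CpGs in 1 list, the share with an island label and that of TSS-near CpGs were thus lower at members, and that of intergenic CpGs was higher. For these classes the share in 1 list was outside the members' interval, and for repeats it was inside. The shares of CpGs in 2 lists were inside the members' interval in every one of these classes. The share of members with an island label rests on 5 CpGs, all intronic or intergenic. The intervals cover counting only, neighbouring CpGs are not independent, and the set of CpGs that could have been listed is not known. Chromosome 1 held 144 members (12.9%), against 9.65% of all CpGs in 1 list, those of the DKO list alone included.

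**Figure D5:**
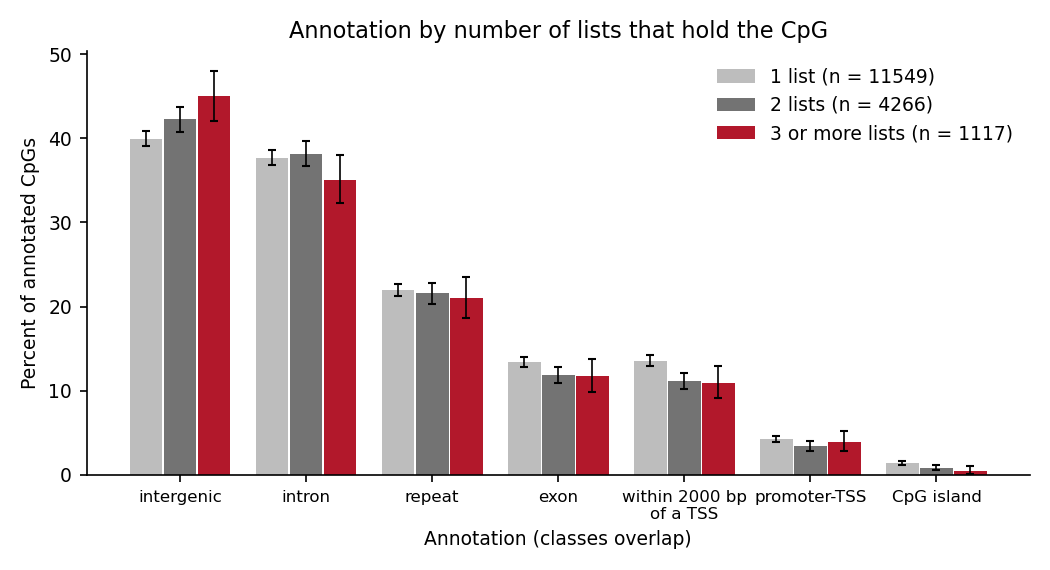
Percent of annotated CpGs (vertical axis) in overlapping annotation classes (horizontal axis) for CpGs in 1, 2 and 3 or more lists. CpGs in the DKO list alone are left out. Error bars are exact binomial 95% intervals, which cover counting only. From 1 list to 3 or more lists the intergenic share goes from 39.95 to 45.0%. The share with a CpG island label, which leaves out islands at promoters and exons, goes from 1.43 to 0.448%.

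The 5 members with a CpG island label were split. Above 0 were CpGs of Ephb4, a receptor gene of blood vessel development (38.3 points in TKO, 58.5 in DKO and 34.5 in Tet2 KO), and near the noncoding Platr22 (43.2 in TKO, 27.8 in DKO and 28.2 in Tet1 KO). Below 0 were an intron of Lhx5, a LIM homeobox gene (-31.6 points in TKO, DKO and Tet1 KO), Tesc, given above, and a CpG 38653 bp upstream of Gse1, which was lower in all 4 lists (-26.5 in TKO, -32.4 in DKO, -40.3 in Tet2 KO, -34.8 in Tet1 KO). In repeats, 182 of 235 members had a mean above 0 (77.4%), and in exons 115 of 131 (87.8%). Among repeat families the share above 0 was 72.9% of 59 members in L1 elements, which are autonomous retrotransposons, 83.3% of 36 in ERVK retroviral elements and 64.9% of 37 in B1 (Alu family) short elements. For CpGs in 1 list it was 51.2% in L1, 51.0% in ERVK and 62.7% in B1. The direction is part of the values that chose the members, so these shares are listed side by side only.

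The DNA around members was also close to that around other listed CpGs. For the 1114 members on assembled chromosomes the median GC content of the 200 bases around the CpG was 50%, against 50.5% for CpGs in 2 lists and 51.5% in 1 list. The ratio of observed to expected CpGs in that window had a median of 0.458, against 0.444 and 0.455. It exceeded 0.6 at 24.7% of members (22.2 to 27.3%), at 21.2% of CpGs in 2 lists and at 23.9% in 1 list. The CpG of the nearest CCGG was a median of 21 bp away and lay within 40 bp for 97.5% of members. For CpGs in 2 lists and in 1 list the median was 22 bp, with 97.9% and 98.2% within 40 bp. No member CpG was itself inside a CCGG, against 1 of 4263 CpGs in 2 lists and 4 of 15519 in 1 list. The E-box CACGTG, a palindrome bound by basic helix-loop-helix factors, had the member as its central CpG at 16 members (1.44%), against 1.38% of CpGs in 2 lists and 1.13% in 1 list.

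Genes of developmental transcription factors were nearest to 30 members at 24 genes, 27 above and 3 below 0 (median mean 40.8 points, against 37.2 over all members). They made up 2.69% of members and 2.64% of annotated CpGs in 1 or 2 lists. The CpG named for Foxk1 lay in an intron of Sdk1, a cell adhesion gene, with 54.5 points in TKO, 60.7 in Tet2 KO and 91.1 in Tet1 KO. Meis2, a homeobox gene, had 71.0 points in TKO and Tet2 KO and 60.0 in Tet1 KO in intron 10. Six3os1, a noncoding RNA beside Six3, was named for a CpG in an intron of Camkmt with 81.6 points (DKO), 66.5 (Tet2 KO) and 54.8 (Tet1 KO). Only 3 of the 30 were within 2000 bp of a TSS. At Dbx1, a homeobox gene of the neural tube, a pair of promoter CpGs had 54.1 and 43.8 points in TKO, 75.5 and 64.7 in DKO and 96.4 and 49.1 in Tet2 KO.

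The shares of the gene lists are given beside their shares of annotated CpGs in 1 or 2 lists, which leave out CpGs in the DKO list alone. Their signs are read beside the 82.2% of all members with a mean above 0. The Wnt pathway had 8 members (0.716% of members, against 0.588%), 7 above 0 and none within 2000 bp of a TSS. A CpG named for Lgr6, an R-spondin receptor gene, lay 9348 bp upstream of its TSS in an exon of another gene. That CpG had 83.3 points in TKO, 56.3 in Tet2 KO and 54.9 in Tet1 KO. An intergenic pair, also above 0, lay 69905 and 69915 bp upstream of Nkd1, a Wnt feedback inhibitor gene. The pathway's member below 0 was in intron 1 of Wnt6, with -73.1 points in TKO, -44.7 in Tet2 KO and -40.5 in Tet1 KO. The TGF-beta, BMP and Nodal pathway had 9 members (0.806%, against 0.607%), 8 above 0 and none within 2000 bp of a TSS. Id2, an inhibitor of helix-loop-helix factors and a BMP target, was higher in all 4 lists, with 51.5 points (TKO), 57.5 (DKO), 36.4 (Tet2 KO) and 53.0 (Tet1 KO) at a CpG 14582 bp from the TSS. So was Skil, a gene of a Smad corepressor, with 31.1, 51.4, 47.9 and 31.9 points in that order. The FGF and MAPK feedback genes had 4 members at Spred2 and Kl (0.358%, against 0.329%), all with a mean above 0, and the Notch pathway had 1 (0.0895%, against 0.221%), in exon 24 of Notch3 (64.9 points in TKO, 25.8 in DKO and 44.0 in Tet1 KO).

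Axon guidance genes had 11 members (0.985%, against 0.727% of CpGs in 1 or 2 lists), 9 above 0. Epha4, an ephrin receptor gene, had 61.8 points in TKO, 34.2 in DKO and 46.3 in Tet1 KO in exon 3. The CpG named for Nrp2, a semaphorin co-receptor gene, lay in an intron of Pard3b, with 39.7 points in TKO and 62.1 in DKO and Tet1 KO alike. Synaptic scaffold and vesicle genes had 7 members (0.627%, against 0.664%), 5 above 0, and one of those below was 1032 bp upstream of Rab3a, the GTPase gene of synaptic vesicles (-56.1 points in TKO, -40.4 in Tet2 KO and -32.5 in Tet1 KO). Dlg1, a scaffold gene, had its member 5 bp from a TSS, with 39.9 points in TKO and DKO and 26.6 in Tet2 KO. Ion channel genes had 6 members (0.537%, against 0.873%), 5 above 0, with a single value in 3 lists at the potassium channel gene Kcnk6 (55.8 in TKO, DKO and Tet2 KO) and near the calcium channel gene Cacna1e (43.3 in TKO, Tet2 KO and Tet1 KO).

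The DNA methylation machinery had 3 members (0.269%, against 0.152% of CpGs in 1 or 2 lists), all above 0. In intron 19 of Dnmt3b, which encodes a de novo DNA methyltransferase, the CpG had 44.6 points in TKO and Tet2 KO and 31.5 in Tet1 KO. In intron 1 of Sin3a, the scaffold gene of a corepressor that binds Tet1, it was higher in all 4 lists, with 65.0 points in TKO and in Tet2 KO, 36.1 in DKO and 29.4 in Tet1 KO. The third was the CpG of Tet1 with the value nearest the minimum. Clustered protocadherins, cell adhesion genes of neurons, had 5 members at 4 genes (0.448%, against 0.240%), all above 0 and 4 of them within 2000 bp of a TSS. Pcdhga11 had 86.2 points in TKO, 40 in DKO and 60.6 in Tet1 KO in its first exon, and Pcdhb1 44.1 (DKO), 54.8 (Tet2 KO) and 43.6 (Tet1 KO). The exons of this cluster resemble each other, so the assignment of reads to one of them is uncertain.

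Zinc finger (Zfp) genes had 19 members (1.70%, against 1.22% of CpGs in 1 or 2 lists), 15 above and 4 below 0, none within 2000 bp of a TSS. The CpG near Zfp706 had 71.9 points in TKO, 66.1 in Tet2 KO and 65.3 in Tet1 KO, and that near Zfp644 was higher in all 4 lists, from 32.3 points in Tet1 KO to 92.3 in TKO. Pluripotency genes had 2 members (0.179%, against 0.348%), both named for Lifr, the LIF receptor gene, but in an exon of Egflam, with 56.0 points in DKO and Tet2 KO and 31.5 in Tet1 KO at the first. The epiblast list had 2 members (0.179%, against 0.1897%), both above 0, the germline list 1 (0.0895%, against 0.196%), in the first exon of Tdrd6, a gene of male germ cells (48.8 points in TKO, 39.2 in DKO and 34.6 in Tet2 KO), and the 2-cell-like list 1 (0.0895%, against 0.0506%), near Obox3, a homeobox gene with near copies, with -63.6 points in TKO, -42.1 in DKO and -44.3 in Tet2 KO. The imprinted list had 3 (0.269%, against 0.354%), of which Trappc9 and the CpG near Nnat had both signs, each lower in DKO alone. Trophoblast, mesoderm, neuroectoderm and matrix genes had 2 (0.179%, against 0.158%), 3 (0.269%, against 0.145%), 3 (0.269%, against 0.247%) and 3 members (0.269%, against 0.481%), with 1 below 0 among the mesoderm and 1 among the matrix genes, and endoderm genes had none, beside 22 of their CpGs in 1 or 2 lists.

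Another list compared Tet2 KO directly with Tet1 KO. It uses the same knockout clones as the lists that chose the members, so it is no independent measure. It held 220 members (19.7%), against 16.5% of CpGs in 2 lists and 9.42% in 1 list. Of these 220, 178 were higher in Tet2 KO and 42 lower, and 67.0% of that whole list was higher. Of the 344 members in the Tet2 KO list but not in the Tet1 KO list, 143 (41.6%) were in the direct list, 133 of them higher in Tet2 KO. Of the 199 in the Tet1 KO list but not in the Tet2 KO list, 21 (10.6%) were, 15 of them lower in Tet2 KO. The split by list largely sets these directions, so nothing is read from them. The largest direct difference in the first of these sets was -100 points, at a CpG near Cry1, a circadian clock gene, with -66.0 points in Tet2 KO. The next was an intergenic CpG 106315 bp from the TSS of Dctd, a deoxycytidylate deaminase gene. With 92.0 points in Tet2 KO against WT, that CpG was 98.8 points higher in Tet2 KO than in Tet1 KO. The CpG near Tcf20, with 78.5 points in Tet1 KO, had -80.7 points in Tet2 KO minus Tet1 KO. At Cry1 and Tcf20 the direct value stood at the reverse-strand cytosine and the values against WT at the forward one. Which strands entered each value is not known, so they need not add up. Of the 574 members in both single-knockout lists, only 56 (9.76%) were in the direct list. The largest of those was near Gnpnat1, with -65.1 points in Tet2 KO, 32.3 in Tet1 KO and -97.4 between them. The examples were taken by size of the direct difference, after the values were seen.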

How the data were processed

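RRBS libraries of 12 ESC clones were analysed. Per the labels and the methods, the authors clipped and trimmed reads (Trim Galore 0.5, Cutadapt), aligned them to mm9 with Bismark 0.19.1, kept CpGs with at least 10 reads, compared groups with methylKit (q-value and 25-point minimum) and annotated CpGs with HOMER. The deposited tables hold the authors' own comparisons, that is, 1 difference per CpG and genotype, and no count, level or q-value per clone. These differences define the members, so they are given as the authors' values.

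CpGs were matched by chromosome and start with pandas 2.3.3. Annotation came from the TKO, Tet2 KO or Tet1 KO list, since that of the DKO list is out of row order. Sequence was read from NCBIM37 with pysam 0.24.0, and reverse-strand positions of the direct list were moved to the forward cytosine. Genes holding a CpG were named from RefSeq (GRCm38.p6) by transcript, without coordinates. Intervals are exact binomial (scipy 1.17.1). Counting was tested on simulated lists. No p-value was computed.

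Members and gene lists were chosen with earlier results of these data known. Named genes were the 12 genes with the most members above 0 and 6 below, CpGs in all 4 lists within 2000 bp of a TSS, the 8 highest and 8 lowest means, the 6 widest of both signs, regions of 4 or more members, up to 3 genes per gene list and the 3 members nearest the minimum. Regions of 3 members were added. The 6 widest of both signs were taken from 10 that tied. A gene that this rule names is not reported here.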

Additional observations from a re-analysis of the deposited data

How the results depend on the processing

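Each of 65 alternatives was computed, and 48 stayed within bounds. The bounds were 1.5 times the count, the interval of the share given above or, for the sequence window, the quartiles of its ratio. For shares these bounds leave out the counting error of the smaller sets. The number of members went from 1117 to 628 with a minimum difference of 30 points and to 192 with 40 points, and it was 117 in all 4 lists. Asking for presence in all 3 remaining lists gave 326 without the TKO list, 365 without the DKO list, 316 without the Tet2 KO list and 461 without the Tet1 KO list. The share with a positive mean was 84.4% at 30 points, 85.9% at 40 points, 74.7% without the Tet2 KO list and 86.3% without the Tet1 KO list, against 82.2%. Repeats fell from 21.0% to 15.4% in all 4 lists and to 16.8% without the Tet2 KO list. At 40 points, 0 of the 192 members (0%) had an island label and 8.33% were within 2000 bp of a TSS. With a window of 500 or 1000 bp, 4.03% or 6.89% of members were near a TSS. Merge distance, sequence window, autosomes alone, 1 CpG per region and the annotation of the last list left every one of their results within those bounds. For the sequence window these were wide, at 0.346 to 0.597 for the ratio of observed to expected CpGs in 200 bases. The median ratio was 0.569 with 100 bases and 0.372 with 500 bases, against 0.458. Counts of members, and shares near a TSS in a narrower window, can only fall by construction. For the other shares the cause was not tested. No paired analysis was possible because each value pools the clones of a genotype, and for the same reason no clone could be left out.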
